A study of Homo sapiens with 12 samples.

Results

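The genes described here are 10 cytokine genes: the chemokine genes CXCL1, CXCL2, CXCL3, CXCL5, CXCL8, CCL2 and CCL20 and the IL6 family genes IL6, IL11 and LIF. They were chosen by name from the deposited table of 58735 genes, in which each symbol had 1 row, and all 10 were among the 16053 genes with enough counts to be tested. RNA was sequenced from A549, an established line of human non-small cell lung cancer cells, in 4 groups of 3 libraries that the study calls biological replicates. The groups were cells with a control short hairpin RNA (shControl, genotype label WT) given sham irradiation, the same cells 3 days after ionizing radiation, cells with a hairpin against FXR (shFXR) given sham irradiation, and shFXR cells 3 days after ionizing radiation. Hairpins were stably introduced, so all 4 groups carry one. The sources used here do not give the number of hairpins or clones behind each line, the radiation dose or when sham cells were harvested. A difference between the lines other than the knockdown, or between sham and irradiated cells in time in culture, therefore cannot be told apart from the effect named. FXR was read as NR1H4, the gene of the bile acid sensing farnesoid X receptor, a name that the labels do not spell out.

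Chemokines are small secreted proteins that draw leukocytes along a gradient. The CXC chemokines described here attract mainly neutrophils through the receptors CXCR1 and CXCR2, CCL2 attracts monocytes through CCR2, and CCL20 attracts cells that carry CCR6. IL6, IL11 and LIF each bind a receptor chain of their own and signal through a shared chain encoded by IL6ST, then through JAK kinases and the transcription factor STAT3. In epithelial and lung cancer cells many of these genes are known to be induced by NF-kB after stimulation with cytokines such as IL1 and TNF, and several are known among the factors that damaged or senescent cells secrete.

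Libraries held between 17140918 and 19036159 counts. NR1H4, the gene that checks the labels, was at 23.6 ± 1.52 CPM in sham and 24.8 ± 3.81 CPM in irradiated shControl cells, against 4.15 ± 1.19 and 3.00 ± 0.136 CPM in sham and irradiated shFXR cells (mean ± SD, n = 3). CPM is a count scaled to a common library size, here the TMM-adjusted one. All 6 epithelial marker genes looked at were expressed in every group. Their summed level was 6505 to 10170 CPM in shControl and 4075 to 5082 CPM in shFXR libraries. By the test described below, 5 of 6 were lower in sham shFXR than in sham shControl cells, where 19.4% of all tested genes were lower. KRT7 was the exception, at 1515 ± 89.8 against 1463 ± 120 CPM. After radiation 4 were lower and KRT7 was higher in shFXR cells, where 21.3% of all tested genes were lower and 19.5% higher. Of 10 leukocyte markers, CD3E, CD2 and FCGR3A were at 0 in all libraries, and the summed level was 23.8 to 57.4 CPM in shControl and 12.3 to 23.0 CPM in shFXR libraries, most of it CD14 (45.8 ± 11.7 CPM in sham shControl cells, 8.66 ± 0.965 CPM in sham shFXR cells). Only 2 of these markers were tested, and they went opposite ways. CD14 was lower and ITGAM higher in shFXR cells, both before and after radiation. ITGAM was at 2.21 ± 0.79 CPM in sham shControl and 4.12 ± 0.55 CPM in sham shFXR cells. The summed level of 8 fibroblast and endothelial markers was 25.1 to 32.9 CPM in shControl and 36.4 to 53.2 CPM in shFXR libraries. Of the 5 tested, DCN was higher in sham shFXR than in sham shControl cells (24.8 ± 3.57 against 13.2 ± 2.14 CPM). LUM (1.85 ± 0.384 against 3.04 ± 0.205 CPM) and PECAM1 (0.270 ± 0.245 against 1.52 ± 1.27 CPM) were lower. After radiation DCN, THY1 and PDGFRA were higher and PECAM1 was lower in shFXR cells. The part that these marker differences have in the results below was not tested. Counts from the mitochondrial genome made up 12.9 to 16.8% of the shControl and 10 to 13.1% of the shFXR libraries. Sham shControl library 2 stood apart in its group, with a chi-square per degree of freedom of 24.6 and 21.3 against libraries 1 and 3. Libraries 1 and 3 of that group differed from each other by 7.16. Irradiated shControl libraries 1 and 3 differed by 15.5, and the other pairs of their group by 6.34 and 7.03. Pairs of shFXR libraries differed by 2.49 to 6.94. The largest differences were thus within the shControl groups, and the test shares its estimate of the spread among all groups. Some of the results that rest on sham shControl library 2 are also given without it.

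The genes CXCL1, CXCL2, CXCL3, CXCL5 and CXCL8 lie in a cluster on chromosome 4. The RefSeq promoters of CXCL1, CXCL2 and CXCL3 were 71.9 to 82.5% identical to each other and 45.2 to 55.4% identical to those of CXCL5 and CXCL8. The stretches below come from RefSeq promoters (GRCh38.p14, each running from 250 bases before to 50 bases after the RefSeq gene start), which held 8 of the 10 genes, CCL2 and LIF excepted. They are shown because they carry, in capitals, the letters GGNNTTTCC of an NF-kB site or TGANTCA of an AP-1 site, looked for on both strands.
CXCL1: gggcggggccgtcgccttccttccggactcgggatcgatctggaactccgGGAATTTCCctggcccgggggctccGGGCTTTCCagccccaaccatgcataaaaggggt
CXCL2: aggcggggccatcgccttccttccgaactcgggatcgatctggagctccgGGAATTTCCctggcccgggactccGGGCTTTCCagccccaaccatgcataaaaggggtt
CXCL3: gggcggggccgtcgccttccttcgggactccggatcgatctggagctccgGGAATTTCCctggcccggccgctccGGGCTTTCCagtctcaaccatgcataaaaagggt
CXCL5: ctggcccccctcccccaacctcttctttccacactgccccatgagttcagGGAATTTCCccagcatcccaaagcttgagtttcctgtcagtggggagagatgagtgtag
CXCL8: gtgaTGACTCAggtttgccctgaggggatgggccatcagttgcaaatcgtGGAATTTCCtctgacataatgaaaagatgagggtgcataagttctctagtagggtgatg
IL6: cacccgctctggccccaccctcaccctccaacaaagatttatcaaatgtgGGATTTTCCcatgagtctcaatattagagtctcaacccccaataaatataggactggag
IL11: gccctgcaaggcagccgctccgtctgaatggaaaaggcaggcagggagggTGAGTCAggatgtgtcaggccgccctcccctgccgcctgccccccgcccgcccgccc
The stretch of CXCL1 is chr4:73869265-73869373 on the plus strand, that of CXCL2 chr4:74099214-74099322, that of CXCL3 chr4:74038709-74038817 and that of CXCL5 chr4:73998709-73998817, these last 3 on the minus strand. For CXCL8 it is chr4:73740428-73740536 and for IL6 chr7:22727078-22727186, both on the plus strand, and for IL11 chr19:55370503-55370609 on the minus strand.

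The NF-kB letters were found in 7 of these 8 promoters, all but that of IL11, and in 6.26% of all 35116 RefSeq promoters of the same length. CXCL1, CXCL2 and CXCL3 each held the same pair of matches, whose first bases lie 78, 77 and 78 bases before the gene start for the upstream match and 53 bases before it for the downstream match. In CXCL8 the match lies 91 bases, in CXCL5 90 bases and in IL6 72 bases before the start. CCL20 held its match on the opposite strand, 79 bases before the start. The AP-1 letters were found in CXCL8 and IL11, and in 7.71% of all promoters. The C/EBP letters TTGCNNAA were in CXCL2 and IL6 (10.5% of all promoters), and the STAT letters TTCNNNGAA in CXCL5 alone, where they overlap the NF-kB match (7.66% of all promoters). The letters GTCANTGAC, the core of an inverted repeat bound by FXR, were in none of the 8 promoters and in 0.347% of all promoters. Letters this rare would seldom be met in 8 promoters, so their absence says nothing on whether FXR binds at these genes. These letters were chosen in the knowledge that such promoters are described with NF-kB sites, and a match is a description of the sequence only. Between CXCL1, CXCL2 and CXCL3 the coding sequences were 90.7 to 94.4% identical and the transcripts shared unbroken runs of 55 to 97 bases. Reads inside these runs could have been counted for any of the 3 genes, so their separate values are uncertain to that extent. The identity of these 3 coding sequences with that of CXCL5 or CXCL8 was 53.6 to 62.1%.

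**Figure D1:**
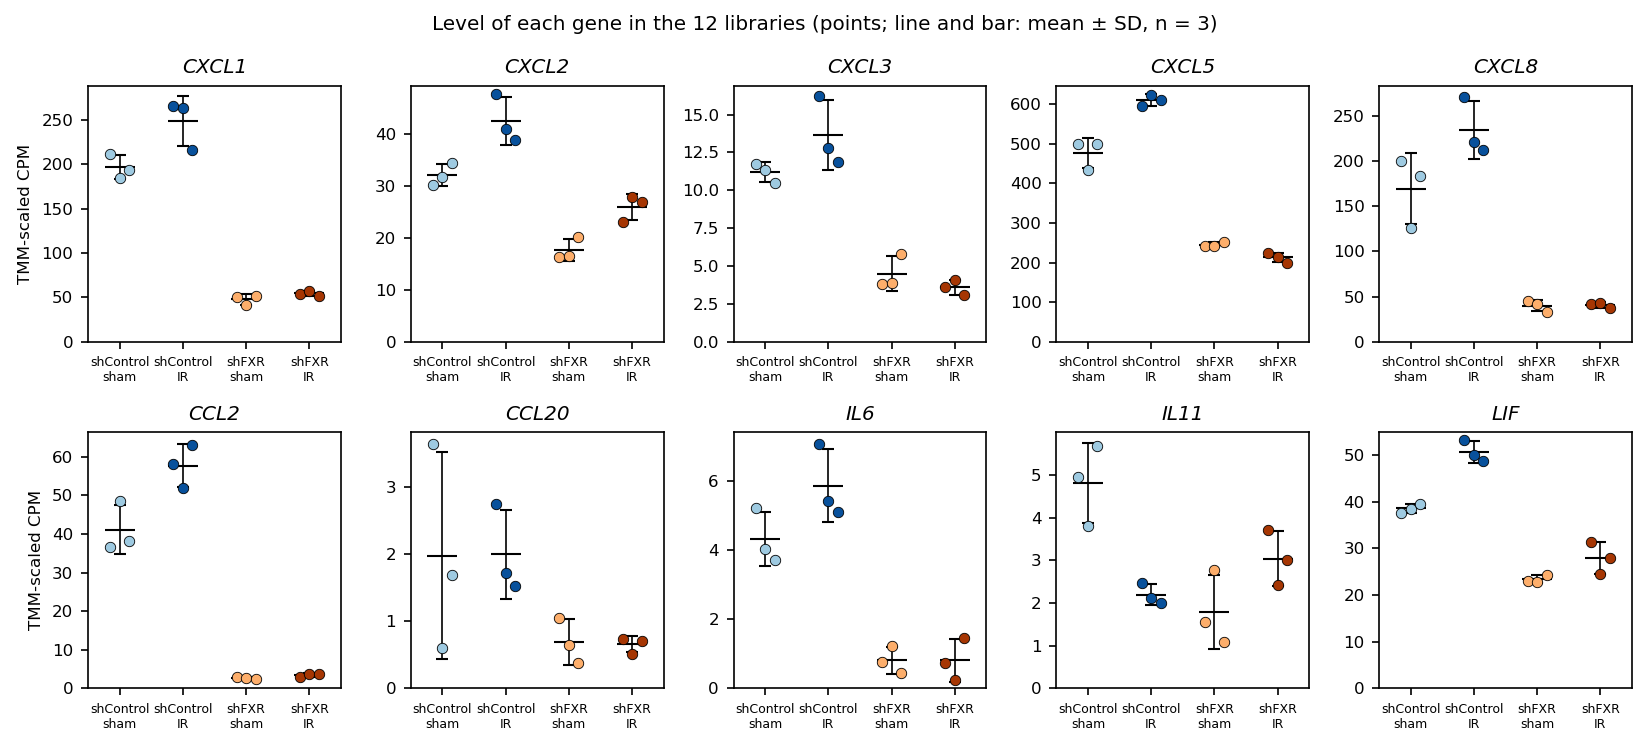
TMM-scaled CPM (y axis, linear, from 0) of each of the 10 genes in the 12 libraries, by group on the x axis; points are libraries, the line and bar are the mean and SD of 3 libraries. In 8 panels the irradiated shControl libraries have the highest mean and both shFXR groups lie below both shControl groups; CCL20 overlaps between groups, and IL11 is highest in sham shControl cells.

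Between the sham lines, the comparison asked how these genes differed with the knockdown before any radiation. All 10 genes were lower in sham shFXR than in sham shControl cells, where 19.4% of all tested genes were lower (edgeR quasi-likelihood test, Benjamini-Hochberg adjusted p under 0.05 over all tested genes). Over all genes 2885 were higher and 3118 lower, a split that became 3820 and 2465 with libraries scaled by total counts only, where all 10 genes were still called lower. The log2 fold changes of the 10 genes had a median of -1.48, against -0.01 over all tested genes. The decreases ran from 0.72 for LIF to 3.89 for CCL2 on the log2 scale. In 9 of the 10 genes every sham shFXR library lay below every sham shControl library, which held in either direction for 46.9% of all tested genes.

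CCL2 (chr17:34255218-34257203, plus strand) had the largest decrease. Its level was 36.7, 48.5 and 38.2 CPM in the sham shControl libraries 1 to 3 and 2.98, 2.76 and 2.54 CPM in the sham shFXR libraries. The highest shFXR library was thus far below the lowest shControl library. This is a 14.9-fold lower level (log2 fold change -3.89 ± 0.14 SE, adjusted p = 5.98e-14). Counts were 696 to 803 in the former and 47 to 54 in the latter libraries.

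CXCL8 (chr4:73740506-73743716, plus strand) encodes interleukin 8, a strong neutrophil attractant. It was at 200, 126 and 183 CPM in the sham shControl libraries and at 45.0, 41.6 and 33.3 CPM in the sham shFXR libraries. The shControl libraries spread widely, with library 2 the lowest, yet the groups did not overlap. The level was 4.24-fold lower (log2 fold change -2.08 ± 0.14, adjusted p = 7.66e-10), and without sham shControl library 2 the log2 fold change lay at -2.24.

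CXCL1 (chr4:73869393-73871242, plus strand) was at 211, 185 and 194 CPM in sham shControl and at 49.998, 41.2 and 52.1 CPM in sham shFXR libraries. The groups were clearly apart, and the level was 4.12-fold lower (log2 fold change -2.04 ± 0.10, adjusted p = 4.14e-12). CXCL3 (chr4:74036589-74038807, minus strand), at 11.8, 11.4 and 10.5 CPM against 3.81, 3.88 and 5.83 CPM, was 2.48-fold lower (-1.31 ± 0.17, adjusted p = 5.51e-06). CXCL2 (chr4:74097035-74099293, minus strand) fell less, from 30.2, 31.6 and 34.5 CPM to 16.4, 16.5 and 20.1 CPM (-0.86 ± 0.11, adjusted p = 2.92e-06). These 3 genes encode the closely related GRO chemokines, and each had all its shFXR libraries below all its shControl libraries. With the counts of CXCL1, CXCL2 and CXCL3 summed into 1 gene, the log2 fold change between the sham lines was -1.78.

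CXCL5 (chr4:73995642-73998779, minus strand), another CXCR2 ligand, was the most abundant of the 10 transcripts per length in every group. It was at 498, 434 and 499 CPM in sham shControl and at 242, 241 and 252 CPM in sham shFXR libraries, a 1.95-fold lower level (log2 fold change -0.96 ± 0.07, adjusted p = 3.82e-09). CCL20 (chr2:227805739-227817564, plus strand) was among the least abundant. Its counts were 69, 10 and 32 in sham shControl and 19, 12 and 7 in sham shFXR libraries, so that the groups overlapped. The log2 fold change of CCL20 was -1.53 ± 0.49 (adjusted p = 0.0172). Without sham shControl library 1 it was -0.75 and no longer passed (adjusted p = 0.242), and the call was also lost without sham shFXR library 2 or 3 (adjusted p = 0.0548 and 0.0829).

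In the IL6 family, IL6 (chr7:22725884-22732002, plus strand), an acute-phase cytokine, was at 5.22, 4.05 and 3.72 CPM in sham shControl and at 0.773, 1.22 and 0.432 CPM in sham shFXR libraries. Counts in the latter were 14, 23 and 8, which leaves the size of the fall imprecise (log2 fold change -2.41 ± 0.36, adjusted p = 3.03e-05). LIF (chr22:30240447-30246851, minus strand), a cytokine named for its action on leukemia cells, was at 37.6, 38.5 and 39.6 CPM in sham shControl and at 22.9, 22.9 and 24.4 CPM in sham shFXR libraries. Its replicates were the tightest of the 10 genes in sham shControl cells, and its decrease of 0.72 ± 0.09 on the log2 scale was the smallest (adjusted p = 2.7e-06). IL11 (chr19:55364389-55370463, minus strand), a cytokine linked to fibrosis and to tumour cells, was at 4.96, 3.81 and 5.67 CPM against 1.55, 2.76 and 1.08 CPM (-1.42 ± 0.27, adjusted p = 0.000341). All its shFXR libraries again lay below all its shControl libraries. The antisense or neighbouring genes that overlap IL6 and LIF had at most 7 counts in any library, and no other gene of the 10 is overlapped in the annotation.

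**Figure D2:**
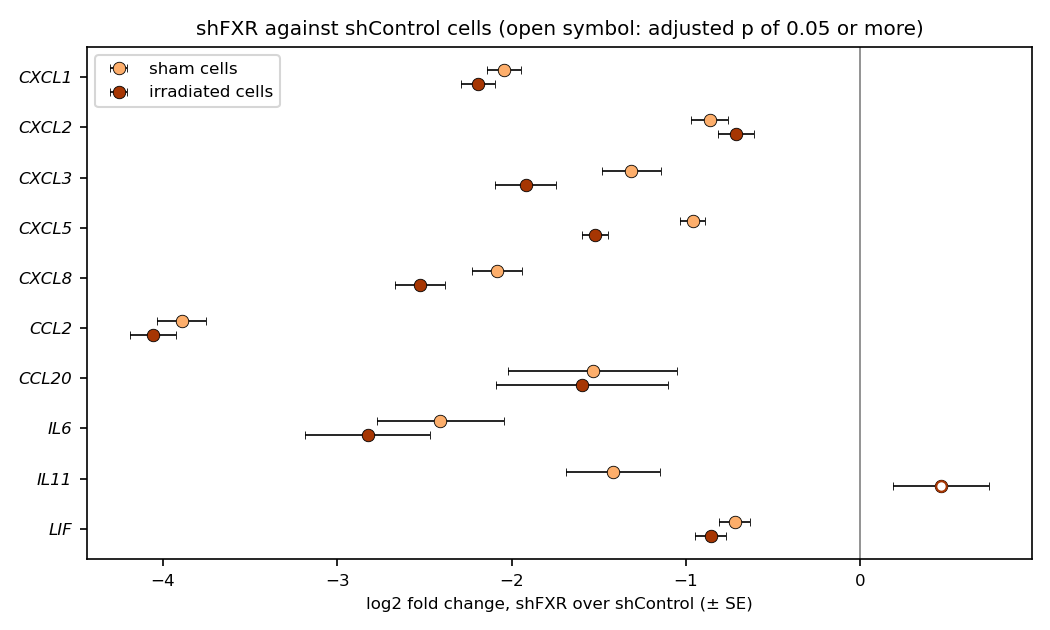
Log2 fold change of shFXR over shControl cells (x axis, ± SE) for each of the 10 genes, in sham cells (light) and in irradiated cells (dark); an open symbol has an adjusted p of 0.05 or more. CCL2 lies farthest to the left at -3.89 and -4.06, LIF and CXCL2 nearest to 0 among the decreases, and IL11 alone is above 0, at 0.46 in irradiated cells.

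The same comparison after radiation asked whether the lines still differed. Here 9 of the 10 genes were lower in shFXR cells, against 21.3% of all tested genes lower and 40.8% called in either direction, and IL11 was the exception. The median log2 fold change was -1.76 over the 10 genes and -0.001 over all tested genes, and the libraries overlapped between the lines for IL11 and for none of the other 9 genes (52.9% of all tested genes did not overlap). CCL2 was at 58.2, 52.0 and 63.0 CPM in irradiated shControl and at 3.01, 3.79 and 3.60 CPM in irradiated shFXR libraries, 16.6-fold lower (log2 fold change -4.06 ± 0.13, adjusted p = 8.15e-15). CXCL8 was at 271, 220 and 212 CPM against 41.7, 43.2 and 37.4 CPM, 5.75-fold lower (-2.52 ± 0.14, adjusted p = 4.54e-11). The shFXR libraries of both genes were all below the lowest shControl library. CXCL1 fell by 2.19 ± 0.10, CXCL3 by 1.92 ± 0.18, CXCL5 by 1.52 ± 0.07 and CXCL2 by 0.71 ± 0.10 on the log2 scale. LIF fell by 0.86 ± 0.09 and IL6 by 2.83 ± 0.36, and CCL20, with 9 to 13 counts in the irradiated shFXR libraries, by 1.59 ± 0.49 (adjusted p = 0.0137). The call of CCL20 was lost without irradiated shControl library 1 (adjusted p = 0.0664) or irradiated shFXR library 2 (adjusted p = 0.0525). The comparisons before and after radiation use different libraries throughout.

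Irradiated and sham shControl cells were set against each other to ask how radiation bore on these genes where FXR was not targeted. Of the 10 genes, 6 rose and 1 fell, where 5.07% of all tested genes rose, 4.96% fell and 10% were called in all. The genes that rose were CCL2, CXCL8, CXCL2, LIF, CXCL5 and CXCL1, by 0.34 to 0.49 on the log2 scale. The median over the 10 genes was 0.38, against -0.003 over all tested genes. In 8 of the 10 genes, against 24.7% of all tested genes, the irradiated and sham libraries did not overlap.

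LIF rose from 37.6, 38.5 and 39.6 CPM to 53.3, 50.04 and 48.7 CPM, with every irradiated library above every sham library (log2 fold change 0.39 ± 0.09, adjusted p = 0.00667). CXCL5 rose from the sham values given above to 596, 625 and 611 CPM (0.36 ± 0.07, adjusted p = 0.00421). CCL2, at 58.2, 52.0 and 63.0 CPM after radiation, rose by 0.49 ± 0.10 (adjusted p = 0.00497). These 3 genes had the smallest adjusted p among the rises, and each group of irradiated libraries lay above its sham group. CXCL2 was at 47.6, 40.9 and 38.8 CPM after radiation (0.40 ± 0.10, adjusted p = 0.0168), CXCL1 at 266, 263 and 216 CPM (0.34 ± 0.09, adjusted p = 0.0245) and CXCL8 at the values given above (0.47 ± 0.13, adjusted p = 0.03).

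Calls of the last 3 genes depended on single libraries. CXCL8 no longer passed without sham shControl library 2, its lowest (0.29, adjusted p = 0.0893), without irradiated library 1 or 2 (adjusted p = 0.108 and 0.0696), or with scaling by total counts (adjusted p = 0.0736). CXCL1 was lost without sham library 2 (adjusted p = 0.056) and without irradiated library 1 or 2 (adjusted p = 0.0703 and 0.122), and CXCL2 without sham or irradiated library 1 (adjusted p = 0.0586 and 0.0626). Irradiated shControl library 1 was the highest of its group for 8 of the 10 genes and library 3 the lowest for 8. When the 6 shControl libraries were fitted alone, 3 of the 10 genes were called, CCL2, LIF and IL11, and CXCL5 missed the threshold (0.35, adjusted p = 0.0558).

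CXCL3, at 16.2, 12.8 and 11.9 CPM after radiation, lay above its sham libraries in all 3 cases but did not pass (0.28 ± 0.16, adjusted p = 0.261). IL6, at 7.07, 5.43 and 5.10 CPM, did not pass either (0.44 ± 0.28, adjusted p = 0.35), and CCL20 gave a log2 fold change of -0.01 ± 0.42 (adjusted p = 0.995). Counts of CCL20 were 50, 30 and 28 after radiation, and its standard error is close to the size of the change seen in CCL2.

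IL11 went the other way in shControl cells. It fell from 4.96, 3.81 and 5.67 CPM to 2.47, 2.12 and 2.01 CPM, and the groups did not overlap. The decrease was 1.13 ± 0.26 on the log2 scale (adjusted p = 0.0104). Without irradiated shControl library 2 it fell by 1.11 and missed the threshold (adjusted p = 0.0535).

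**Figure D3:**
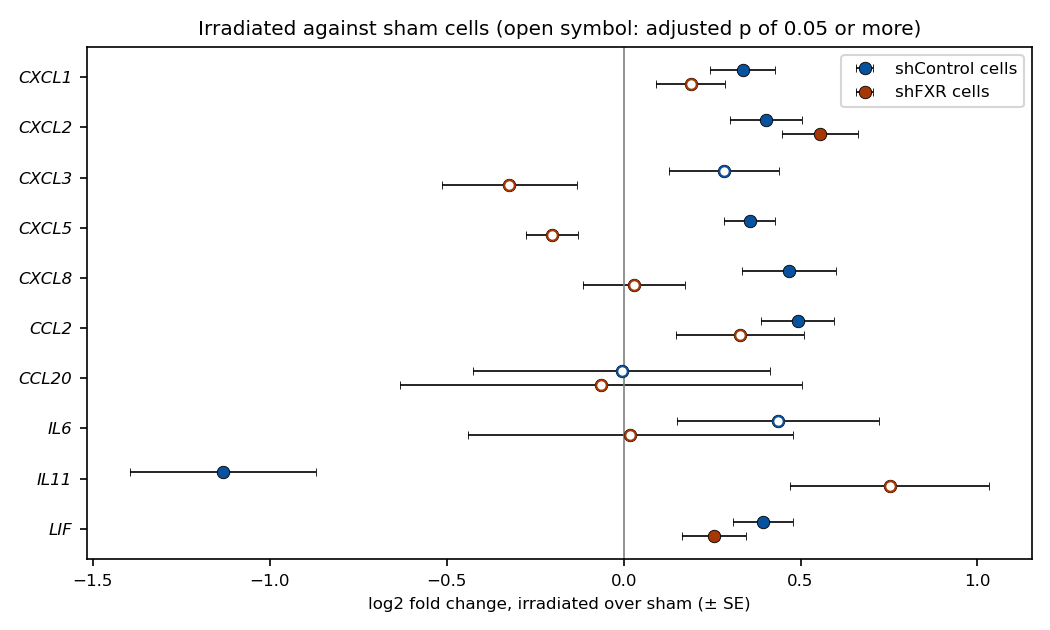
Log2 fold change of irradiated over sham cells (x axis, ± SE) for each of the 10 genes in shControl cells (blue) and shFXR cells (brown); an open symbol has an adjusted p of 0.05 or more. In shControl cells 6 genes are called above 0, between 0.34 and 0.49, and IL11 below 0 at -1.13; in shFXR cells only CXCL2 (0.55) and LIF (0.26) are filled.

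Among shFXR libraries, radiation changed 2 of the 10 genes, CXCL2 and LIF, both higher, where 21.0% of all tested genes were called and 10.9% were higher. The median over the 10 genes was 0.11, against 0.02 over all tested genes, and 4 of 10 genes did not overlap between the groups (43.7% of all tested genes). CXCL2 rose from 16.4, 16.5 and 20.1 CPM to 23.1, 27.8 and 26.9 CPM, all irradiated libraries above all sham libraries (log2 fold change 0.55 ± 0.11, adjusted p = 0.00109). LIF was at 22.9, 22.9 and 24.4 CPM in sham and 31.4, 24.5 and 27.9 CPM in irradiated libraries, and passed narrowly (0.26 ± 0.09, adjusted p = 0.0489). That call of LIF was lost in 15 of 20 alternatives, with adjusted p values up to 0.28. CXCL5 was at 242, 241 and 252 CPM in sham and 224, 215 and 200 CPM in irradiated libraries, which did not overlap. Its log2 fold change of -0.20 ± 0.07 missed the threshold (adjusted p = 0.0554) and passed it in 8 of 20 alternatives, among them DESeq2 (adjusted p = 0.0229), the shFXR libraries fitted alone (adjusted p = 0.00412) and the fit without sham shControl library 2 (-0.22, adjusted p = 0.00939). CCL2, at 3.01, 3.79 and 3.60 CPM after radiation, gave a log2 fold change of 0.33 ± 0.18 (adjusted p = 0.21). CXCL1 had one of 0.19 ± 0.10 (adjusted p = 0.18), and this became 0.27 with an adjusted p of 0.0485 for the summed counts of CXCL1, CXCL2 and CXCL3. CXCL8 (0.03 ± 0.14), CXCL3 (-0.32 ± 0.19), CCL20 (-0.07 ± 0.57) and IL6 (0.02 ± 0.46) did not pass.

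How far the radiation responses of the lines differed was tested as the shFXR minus the shControl response. The difference was called for 2 of the 10 genes, CXCL5 and IL11, where 15% of all tested genes were called, 7.31% with a higher and 7.67% with a lower response in shFXR cells. CXCL5 rose in every irradiated shControl library above the sham range of 434 to 499 CPM, while its irradiated shFXR libraries all lay below the sham range of 241 to 252 CPM. The difference of the responses of CXCL5 was -0.56 ± 0.10 on the log2 scale (adjusted p = 0.00215), and it passed in all alternatives with an adjusted p of at most 0.0114. For the other CXC genes the difference did not pass. It was -0.44 ± 0.20 for CXCL8 (adjusted p = 0.135), -0.61 ± 0.25 for CXCL3 (adjusted p = 0.101), -0.15 ± 0.13 for CXCL1 (adjusted p = 0.49) and 0.15 ± 0.15 for CXCL2 (adjusted p = 0.52). With no filter on low counts the difference of CXCL8 passed (adjusted p = 0.00431). CCL2 (-0.16 ± 0.21), LIF (-0.14 ± 0.12), IL6 (-0.42 ± 0.54) and CCL20 (-0.06 ± 0.71) did not pass.

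The group means of IL11 crossed between the lines. In shFXR cells it was at 1.55, 2.76 and 1.08 CPM in sham and at 3.70, 2.41 and 3.00 CPM in irradiated libraries. Sham library 2 lay above irradiated library 2, so these groups overlapped, and the log2 fold change of 0.75 ± 0.28 did not pass (adjusted p = 0.0634). It passed in 4 of 19 alternatives: without sham library 2, at 1.204 (adjusted p = 0.00772), with no filter (adjusted p = 0.033), with the shFXR libraries fitted alone (adjusted p = 0.0438) and with library weights (adjusted p = 0.00303). The difference between this and the decrease in shControl cells was 1.88 ± 0.38 (adjusted p = 0.00403), with values of 1.62 to 2.34 and an adjusted p of at most 0.0157 in the alternatives that could test it. After radiation, IL11 was no longer lower in shFXR than in shControl cells, at 2.41 to 3.70 CPM against 2.01 to 2.47 CPM (log2 fold change 0.46 ± 0.27, adjusted p = 0.189). With library weights it was called higher there (0.60, adjusted p = 0.0262). Counts of IL11 were 20 to 108 in a library, which makes it one of the 3 least abundant of the genes by CPM in sham shFXR cells.

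Ordered by mean level, the irradiated shControl group came first and the sham shControl group second for CXCL1, CXCL2, CXCL3, CXCL5, CXCL8, CCL2 and LIF, with no overlap between them, and both lay apart from the shFXR groups. For IL6 the order was the same, but the shControl groups overlapped. Within the shFXR line the groups lay apart for CXCL2, CXCL5, CCL2 and LIF and overlapped for CXCL1, CXCL3, CXCL8 and IL6. For CCL20 every neighbouring pair of groups overlapped. For IL11 the sham shControl group came first, apart from irradiated shFXR cells, which overlapped irradiated shControl cells, and these overlapped sham shFXR cells.

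Set against each other per length (CPM divided by the deposited gene length in kilobases), the 10 transcripts summed to 476 ± 38.6 CPM per kilobase in sham and 616 ± 33.8 in irradiated shControl libraries, and to 174 ± 5.91 and 174 ± 7.08 in the sham and irradiated shFXR libraries (mean ± SD, n = 3). The lowest shControl library, at 433 CPM per kilobase, was above the highest shFXR library, at 178. In bulk libraries fewer cells that make a transcript and less of it per cell cannot be told apart. CXCL5 made up 39.5% ± 0.757 of the sum in sham and 39.1% ± 2.64 in irradiated shControl cells, and 55.7% ± 1.23 in sham and 48.4% ± 1.25 in irradiated shFXR cells. CXCL1 made up 31.9% ± 1.18, 31.0% ± 2.01, 21.2% ± 1.88 and 24.2% ± 0.662 in the same order, and CXCL8 15.5% ± 2.43, 16.7% ± 1.52, 10.2% ± 1.69 and 10.3% ± 0.369. The share of each of these 3 genes did not overlap between the lines. CCL2 went from 4.41% ± 1.08 in sham shControl to 0.802% ± 0.0755 in sham shFXR cells, and CXCL2 from 4.51% ± 0.482 to 6.77% ± 0.673, reaching 9.98% ± 1.14 in irradiated shFXR cells. The make-up thus held more CXCL5, CXCL2 and LIF and less CXCL1, CXCL8 and CCL2 in shFXR cells, at a lower sum.

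**Figure D4:**
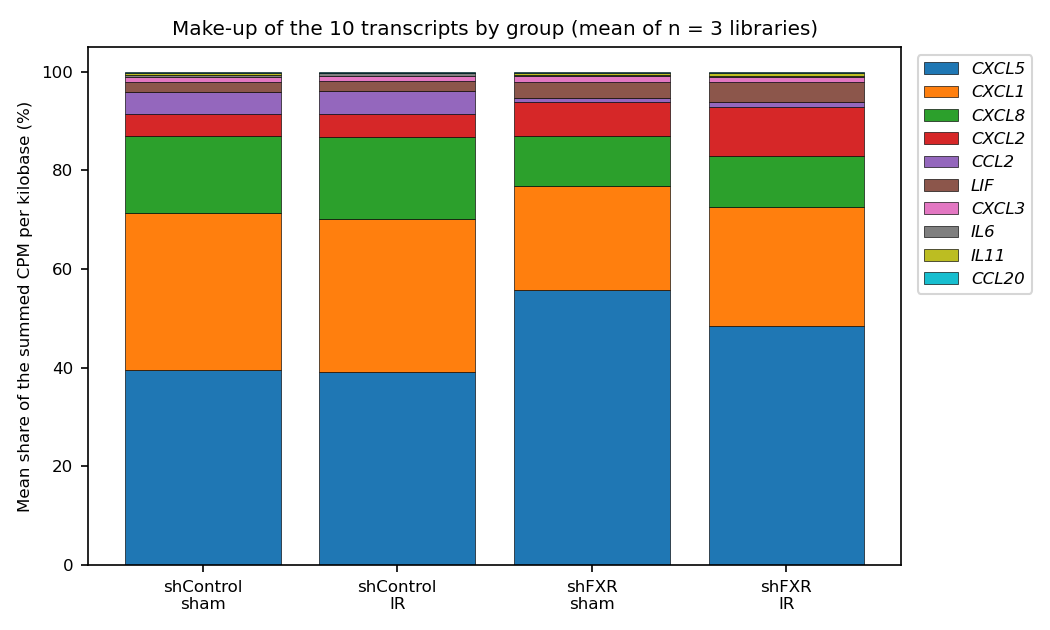
Mean share (y axis, percent of the summed CPM per kilobase, n = 3 libraries) of each of the 10 transcripts in each group (x axis). CXCL5 takes 39.5 and 39.1% in the shControl groups and 55.7 and 48.4% in the shFXR groups, and CXCL1 and CXCL8 take less in the shFXR groups.

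The CXC genes lie within 358.8 kb of chromosome 4, measured from the start of CXCL8 to that of CXCL2. In a window reaching 500 kb beyond them on each side, 12 of 34 annotated genes were tested. Between the sham lines, CXCL6, a further CXCR1 and CXCR2 ligand inside the cluster, fell by 1.73 ± 0.30 on the log2 scale (adjusted p = 0.00012). RASSF6, on the other side of CXCL8, fell by 1.08 ± 0.20 (adjusted p = 0.000273). PF4, a platelet chemokine gene inside the cluster, lay at -0.33 ± 0.25 (adjusted p = 0.312). Beyond CXCL2, MTHFD2L was at -0.23 ± 0.14 (adjusted p = 0.191), and the epidermal growth factor receptor ligand genes EREG and AREG rose by 0.64 ± 0.12 and 1.03 ± 0.10 (adjusted p = 0.000418 and 1.49e-07). ANKRD17, the farthest on the CXCL8 side, was at 0.04 ± 0.08 (adjusted p = 0.717). By position, the called decreases ran from RASSF6 to CXCL2, and the increases lay together at the far end. All tested genes of the window are given, whatever their values.

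**Figure D5:**
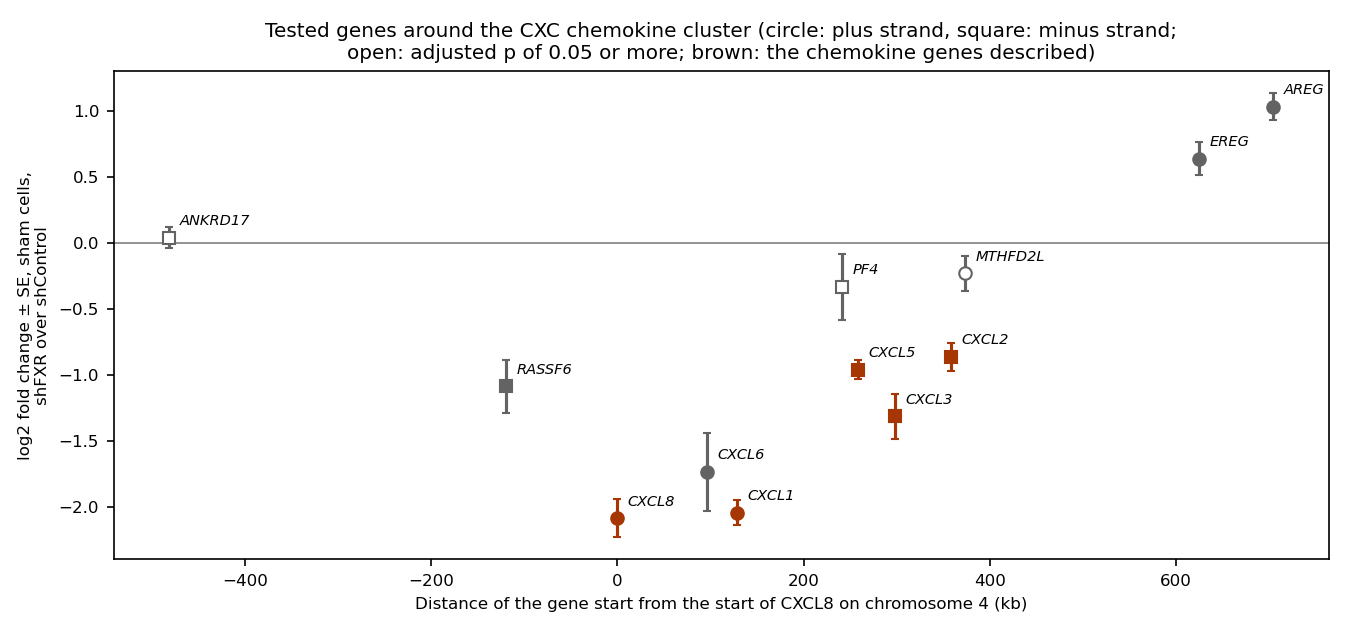
Log2 fold change of sham shFXR over sham shControl cells (y axis, ± SE) against the distance of each gene's start from that of CXCL8 (x axis, kb) for the 12 tested genes of the window; circles are on the plus and squares on the minus strand, and open symbols have an adjusted p of 0.05 or more. The 5 chemokine genes described (brown), CXCL6 and RASSF6 lie at -0.86 or lower, while EREG and AREG at the far end lie above 0.

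Most relatives of these chemokines had too few counts to be tested. Among 13 other CXC and CX3C chemokine genes 4 were tested, and between the sham lines 3 of them fell and 0 rose, where 19.4% of all tested genes fell and 18.0% rose. CXCL16 fell by 0.75 ± 0.16 (adjusted p = 0.00122) and CX3CL1, or fractalkine, by 1.41 ± 0.41 (adjusted p = 0.0109), besides CXCL6. After radiation CXCL6 alone passed, lower by 1.42 ± 0.28. The interferon-induced attractant CXCL10 had 10 counts in all 12 libraries together and CXCL9 had 0. Of 17 other CC and XC chemokine genes 2 were tested. CCL26, or eotaxin 3, was lower in shFXR cells both before (-1.79 ± 0.42, adjusted p = 0.00208) and after radiation (-1.96 ± 0.42, adjusted p = 0.000858), and CCL5, at 0.34 ± 0.40 and 0.73 ± 0.39, did not pass. Radiation called none of these 6 genes in either line.

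The 7 chemokine receptor genes looked at had few or no counts, and none could be tested. CXCR1, CXCR2, CCR2 and CCR6 had 0 counts in all 12 libraries. A 0 in a single library, taken alone, allows up to 3 counts, or 0.158 to 0.175 CPM. The 12 libraries together set a lower limit, which was not worked out. Either limit covers counting error only. The scavenging receptor genes ACKR1, ACKR2 and ACKR3 had 17, 66 and 2 counts over all libraries.

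Receptors of the IL6 family were expressed, and 6 of 7 were tested. Between the sham lines 4 were higher and 1 lower in shFXR cells, where 18.0 and 19.4% of all tested genes were higher and lower. IL6ST, the shared signalling chain, was at 136 ± 17.9 CPM in sham shControl and 177 ± 9.59 CPM in sham shFXR cells (log2 fold change 0.38 ± 0.09, adjusted p = 0.002). IL27RA, a chain of the IL27 receptor, rose by 0.63 ± 0.13 (adjusted p = 0.000867), IL6R by 0.39 ± 0.13 (adjusted p = 0.0248) and LIFR by 0.35 ± 0.12 (adjusted p = 0.0213). The calls of IL6R and LIFR were lost in 3 and 4 of 20 alternatives, with adjusted p values up to 0.123 and 0.0801. The gene that was lower was IL11RA (-0.68 ± 0.21, adjusted p = 0.0163), a call lost in 2 of 20 alternatives. After radiation OSMR, IL27RA and IL11RA were higher in shFXR cells and none was lower, where 19.5% of all tested genes were higher and 21.3% lower. There the groups of IL11RA overlapped, and its call (0.56 ± 0.21, adjusted p = 0.0401) was lost in 5 of 20 alternatives, with values down to 0.36 and adjusted p values up to 0.206. The responses to radiation differed for IL11RA and OSMR, higher in shFXR cells, and for IL6R, lower (adjusted p = 0.0111, 0.043 and 0.0412), but the calls of OSMR and IL6R were lost in 11 and 9 of 19 alternatives. Over all tested genes 7.31% had a higher and 7.67% a lower response in shFXR cells.

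IL11RA, the receptor chain that binds IL11, had the same crossing order as IL11 in the group means. It was at 7.60, 6.70 and 5.61 CPM in sham and 6.36, 3.72 and 3.09 CPM in irradiated shControl libraries, and at 4.64, 4.14 and 3.67 CPM in sham and 5.91, 6.54 and 6.98 CPM in irradiated shFXR libraries. The shFXR groups did not overlap, while irradiated shControl library 1 lay within the sham range. The log2 fold change with radiation was -0.59 ± 0.21 in shControl cells (adjusted p = 0.0789) and 0.64 ± 0.21 in shFXR cells (adjusted p = 0.0373), the latter call lost in 7 of 20 alternatives with adjusted p values up to 0.139. The difference of 1.24 ± 0.30 passed in all 19 alternatives that tested it. IL11RA overlaps GALT, an enzyme gene of galactose metabolism on the same strand with 162 to 254 counts, and reads of the shared part cannot be assigned to one of them. GALT moved in the same directions, by -0.12 ± 0.12 and 0.47 ± 0.13 with radiation in shControl and shFXR cells (difference 0.59 ± 0.18, adjusted p = 0.0294). Its part in the values of IL11RA was not tested.

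Other IL6 family cytokine genes were tested in 4 of 8 cases. CLCF1, a ligand of the CNTF receptor, was lower in shFXR cells before (-0.53 ± 0.12, adjusted p = 0.00139) and after radiation (-0.87 ± 0.12, adjusted p = 6.36e-06). After radiation the cardiotrophin gene CTF1 was higher (1.31 ± 0.39, adjusted p = 0.0109, a call lost in 1 of 19 alternatives), with group means of at most 1.29 CPM. Of 13 JAK-STAT and feedback genes, all tested, 3 were higher and 6 lower in sham shFXR than in sham shControl cells, beside 18.0 and 19.4% of all tested genes. The kinase gene JAK1 rose by 0.94 ± 0.09 (adjusted p = 1.11e-07) and the feedback inhibitor gene SOCS2 by 1.33 ± 0.19, while STAT5B fell by 0.86 ± 0.08. PTPN11, a phosphatase gene of the pathway, rose by 0.30 ± 0.10, a call lost in 4 of 20 alternatives. STAT3 lay at -0.02 ± 0.07 (adjusted p = 0.866), and its feedback target SOCS3 fell by 0.69 ± 0.14 (adjusted p = 0.000498), from 28.9 ± 1.77 to 17.9 ± 3.80 CPM. Genes outside the naming rule, chosen after their values were seen, are STAT3, SOCS3, JAK2, CSF3, CTF1, CCL5, CXCL9, CXCL10, TNF, IL6R, LIFR, OSMR and GALT. JAK2 was lower in shFXR cells before and after radiation, by 0.46 ± 0.14 (a call lost in 1 of 20 alternatives) and 0.91 ± 0.14.

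A further list held 20 genes of cytokines and receptors, chosen as possible upstream signals, and 16 were tested. Of those tested, 2 were higher and 9 lower between the sham lines, beside the same 18.0 and 19.4% of all tested genes. The list also holds growth factor genes such as CSF1 and CSF3. Whether any listed gene acts upstream of the cytokine genes described was not tested. IL1B, a strong inducer of chemokines, was at 6.96, 4.47 and 3.78 CPM in sham shControl and at 0.773, 0.956 and 0.971 CPM in sham shFXR libraries, without overlap (log2 fold change -2.49 ± 0.30, adjusted p = 1.97e-06). CSF1, a macrophage growth factor gene, fell by 0.72 ± 0.09 (adjusted p = 1.66e-06), and CSF3, the granulocyte growth factor gene, fell by 2.62 ± 0.36 (adjusted p = 1.17e-05), from 1.91 ± 0.243 to 0.307 ± 0.0860 CPM. IL1RAP, the accessory chain of the IL1 receptor, rose by 1.33 ± 0.14 (adjusted p = 5.1e-07) and IL18 by 0.29 ± 0.08 (adjusted p = 0.00981). TNF had 3 counts in all 12 libraries together. With radiation IL1B rose in shFXR cells to 1.71, 1.204 and 2.83 CPM (1.09 ± 0.34, adjusted p = 0.0261), with all irradiated above all sham libraries, but stayed below every shControl library. That call of IL1B was lost in 4 of 19 alternatives.

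Among 12 genes of proteins that bind cytokine messages, 2 were higher and 2 lower between the sham lines. ZC3H12A, which encodes the RNase regnase that degrades IL6 messages, fell by 0.95 ± 0.09 (adjusted p = 6.27e-08), from 71.2 ± 4.63 to 36.7 ± 3.19 CPM. ZC3H12C, a relative of it, rose by 0.61 ± 0.11 (adjusted p = 0.000304), and TIA1, a translational repressor gene, fell by 0.35 ± 0.09 (adjusted p = 0.00592). The share of this list that was called, 4 of 12, lay near that of all tested genes (37.4%).

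Genes whose pattern over the 12 libraries was most like 3 of these genes were named by their Pearson correlation among 10482 genes of at least 5 CPM. The libraries fall into the separate lines, so a high value mostly reflects a shared difference between the lines, and no p is given. For CXCL8 these were CAST (r = 0.995), ACSL4 (0.994) and CA12 (0.993). For CCL2 they were HTATIP2 (0.997), GM2A (0.995) and SPP1 (0.994). SPP1, which encodes the secreted protein osteopontin, was at 258 ± 10.9 CPM in sham shControl and 25.6 ± 0.741 CPM in sham shFXR cells. For IL11 the values were lower, at 0.944 for PDGFA, 0.906 for GDPD1 and 0.884 for DNASE1. PDGFA, a platelet-derived growth factor gene, was at 17.2 ± 1.49 CPM in sham and 13.98 ± 1.21 in irradiated shControl cells, and at 12.7 ± 1.31 and 14.4 ± 0.725 CPM in sham and irradiated shFXR cells.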

How the data were processed

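The authors deposited raw counts per gene and library, with gene lengths in bases. The genome build was hg38 and the tools included DESeq2 1.20.0, per the submitters' processing notes; sources used here name no aligner, counting tool or strand setting. Poly-T beads and random hexamer priming were used, per the labels' protocols.

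From the deposited counts, 16053 genes were kept by filterByExpr (minimum count 10, minimum total count 15), given TMM factors and tested by quasi-likelihood in edgeR, 1 coefficient per group over 12 libraries (8 residual degrees of freedom). Benjamini-Hochberg adjusted p under 0.05 over all genes was called. A standard error is log2 fold change over root F. Versions were edgeR 4.0.16, DESeq2 1.42.0 and limma 3.58.1 in R 4.3.3. No replicates were identical, and p-values rest on 3 libraries per group whose separate origin the labels do not detail further. Alternatives were RLE and total count scaling, no filter, a mean of at least 5 CPM, DESeq2's Wald test, a replicate block, only the groups compared, leaving out each library, and CXCL1, CXCL2 and CXCL3 summed. Limma voom with library weights was added after seeing the data.

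Genes named are the 10 described, up to 3 per further list with the smallest called adjusted p between the sham lines and 1 in the opposite direction, the 3 most alike in pattern to CXCL8, CCL2 and IL11, and neighbours by position. The genes, lists and motifs were chosen with earlier results of these data known, so no list is independent evidence. Some genes of the lists are not reported here by name.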

Additional observations from a re-analysis of the deposited data

Results flagged for a closer look

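Radiation responses of CXCL5 and IL11 differed between the lines by a test of the difference itself, in opposite directions. For CXCL5 the shFXR minus the shControl response was -0.558 on the log2 scale (SE 0.10, adjusted p = 0.00215, edgeR), with all 3 irradiated shControl libraries above their sham range and all 3 irradiated shFXR libraries below theirs. For IL11 it was 1.884 (SE 0.38, adjusted p = 0.00403), with all 3 irradiated shControl libraries below their sham range and 2 of 3 irradiated shFXR libraries above theirs. These were 2 of 10 genes, where 15% of all tested genes were called in this comparison.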

How the results depend on the processing

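The knockdown calls held best: without radiation 7 to 10 and after radiation 7 to 10 of the 10 genes were called under the alternatives, the lowest where only 7 genes had a mean of at least 5 CPM and were tested. The call of CCL20 was the one lost between the lines. Called responses to radiation in shControl cells numbered 3 instead of 7 when only the groups compared were fitted, and 4 to 7 when single libraries were left out. In shFXR cells the 2 calls became 5 with limma voom and library weights, 4 with only the groups compared, 1 with total counts only, 1 with a replicate block and 1 to 3 without single libraries. The difference between the responses was called for 1 gene at a mean of 5 CPM, where IL11 was not tested, for 2 whichever library was left out and for 3 with no filter. It needs all groups, so fitting only some was not run for it. Same-numbered libraries had correlations of their deviations from the group means of -0.14 to 0.23, with 2 of 18 pairs over 0.1. Differently numbered libraries were not compared in this way, so whether the numbers pair the samples could not be decided. The block cost the LIF call in shFXR cells (0.25, adjusted p = 0.0597) and no other call of the 10 genes. Over all tested genes the count for radiation in shControl cells fell from 1611 to 551 with only the groups compared, 562 without irradiated shControl library 2 and 845 without library 3, and rose to 2659 with library weights. It went from 3379 to between 2106 and 2226 in shFXR cells without sham or irradiated library 1 or 3, and to 6298 with library weights. The count for the difference went from 2405 to between 1162 and 1595 without irradiated shControl library 2 or 3, irradiated shFXR library 3 or sham shFXR library 1 or 3, and to 4300 with weights. Values that changed sign were called in neither form, except for the summed counts in shFXR cells. For CCL20 they were 0.005684 with DESeq2 and 0.11 with the replicate block in shControl cells, and 0.15 with library weights for the difference, with ranges on leaving out libraries of -0.42 to 0.77 in shControl cells, -0.36 to 0.36 in shFXR cells and -0.84 to 0.36 for the difference. In shFXR cells CXCL8 was at -0.006381 with total counts, -0.0236 with weights and -0.0929 to 0.12 without single libraries. IL6 in shFXR cells was at -0.26 with weights, -0.0170 with total counts, -0.005267 with no filter and -0.73 to 0.45 without single libraries, and its difference ranged from -1.17 to 0.0128. Summing CXCL1, CXCL2 and CXCL3 gave 0.27 for radiation in shFXR cells, where CXCL3 alone was negative, and -0.0781 for the difference, where CXCL2 alone was positive. In these cases the cause was not tested. CCL20, IL6 and IL11 had libraries with as few as 7, 4 and 20 counts, and CCL20 in sham shControl and IL6 in irradiated shFXR cells had coefficients of variation between replicates of 78.0 and 76.8%. Counting error and other spread between replicates were not separated.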
